A study of Mus musculus with 24 samples.

Results

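Splenic NK cells collected 7 days after injection of RMA-KR tumor cells were compared with NK cells of mice that received no tumor. The libraries were taken by their labels: 5 carried RMA-KR and day 7, and 4 were controls, which makes 9 of the 24 libraries of the series. All mice were wild-type C57BL/6J females of 7 to 9 weeks. RMA is a mouse T lymphoma line. RMA-KR was derived from it by knocking out B2m, which removes MHC class I from the cell surface. The NKG2D ligand Rae1-β and the fluorescent protein ZsGreen were then added with a lentivirus, and the line was cloned by limiting dilution. Tumor cells were injected intravenously, and NK cells were sorted from the spleen by flow cytometry as NKp46 or NK1.1 positive cells without T and B cell markers. The other groups were RMA–bearing mice at day 2, 4 and 9 and RMA-KR–bearing mice at day 2 and 14, with 3 libraries each. PolyA RNA was sequenced, and the deposited table gives reads per gene. The 9 libraries held 5138651 to 14824109 counts, with a median of 9626213. The labels number the libraries of a group without saying that each is a separate mouse, so p-values measure the spread between these libraries, which may be technical in part.

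NK cells are innate lymphocytes that kill cells lacking MHC class I or displaying stress ligands, and they weigh signals from activating receptors such as NKG2D against those from inhibitory Ly49 and NKG2A receptors. Cytokines such as IL-2, IL-15, IL-12, IL-18 and type I interferons prime them, raise their metabolism and can drive them into cell cycle. Prolonged encounter with targets is known to leave NK cells poorly responsive, and day 7 is the intermediate time point of the RMA-KR series between day 2 and day 14.

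Before any comparison, the libraries of both groups were not alike. Fos and Jun, which encode the subunits of the AP-1 transcription factor and are induced within minutes of stimulation, divided them. Fos stood at 1650, 947, 924 and 83.9 CPM (counts scaled to normalized library depth) in controls 1 to 4 and at 975, 986, 88.3, 67.3 and 75.8 CPM in RMA-KR day 7 libraries 1 to 5. Jun followed the same division, with 815, 927, 939 and 105 CPM in the controls and 926, 1042, 91.2, 155 and 101 CPM at day 7. Control 4 and RMA-KR day 7 libraries 3, 4 and 5 were therefore far below the rest for both genes, while the other 20 libraries of the series held 403 to 1910 CPM of Fos and 363 to 1045 CPM of Jun. The same 4 libraries had more genes with a count, 27820 in control 4 and 24676, 26285 and 24621 in the day 7 libraries, against 23111, 19370 and 19446 in controls 1 to 3 and 16651 and 15922 in day 7 libraries 1 and 2. The split crosses the groups unevenly, with 1 low control of 4 and 3 low day 7 libraries of 5. The gene lists and the leading genes are therefore also compared within the 5 libraries that were not low (2 day 7 libraries against 3 controls) and within the 4 low libraries (3 day 7 libraries against control 4, a lone library assumed to vary like the other groups). What set these 4 libraries apart was not tested.

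**Figure D1:**
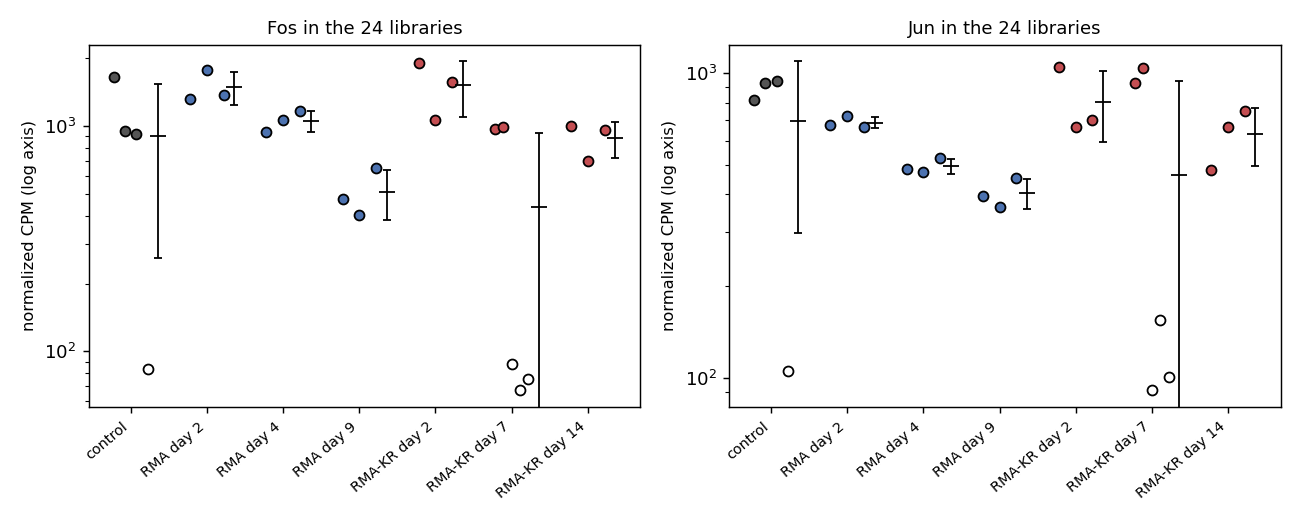
Normalized CPM of Fos and Jun (log axes) in the 24 libraries by group. Each point is a library, open points are the 4 low libraries, and the bar beside each group is its mean ± SD, which for RMA-KR day 7 runs below the axis. Control 4 and RMA-KR day 7 libraries 3, 4 and 5 lie at 67.3 to 88.3 CPM of Fos, below every other library.

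The summed level of a list of immediate early and stress genes showed the same division, in part by construction because the list includes Fos and Jun. It was 14640, 15070, 17650 and 4276 CPM in the controls and 19590, 17700, 3759, 4085 and 4070 CPM at day 7, with Junb the most abundant member per kilobase. Not every member followed the sum, and Myc, chosen after its values were seen, did not divide the libraries this way. Over all 9 libraries 26 of the 35 tested members were lower at day 7, with a median log2 fold change of -0.37. Within the libraries that were not low the median was 0.14, and within the low libraries it was 0.14 as well, so the direction of this list over all libraries is not found within either set. Over all 17097 tested genes the median was 0.01, and it was -0.14 and 0.05 within these sets.

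Between RMA-KR day 7 and control NK cells edgeR called 3 genes, all 3 higher at day 7: Serpine2, Tnfrsf9 and Pim2. That the other genes were not called does not show that they were unchanged. A gene was called when edgeR's quasi-likelihood test gave a Benjamini-Hochberg adjusted p under 0.05 and the fold change exceeded 2; the share called was 0.0175% of 17097 tested genes. The fourth smallest adjusted p was 0.342 with edgeR. Without adjustment, 514 genes (3.01%) were higher and 497 (2.91%) lower at p under 0.05. In 228 genes (1.33%) every day 7 library lay above every control, and in 221 (1.29%) every one lay below.

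Serpine2 encodes a secreted inhibitor of serine proteases (ENSMUSG00000026249, chr1:79794197-79861180, mm10). It was at 9.24, 13.6, 7.48 and 1.70 CPM in controls 1 to 4 and at 54.6, 40.5, 62.1, 27.6 and 77.9 CPM in RMA-KR day 7 libraries 1 to 5. All 5 day 7 libraries were above all 4 controls, and control 4 was the lowest of the 9. The group means were 8.0 ± 4.93 (SD, n = 4) and 52.5 ± 19.4 CPM (SD, n = 5), and the log2 fold change was 2.72 ± 0.44 (SE; edgeR quasi-likelihood, Benjamini-Hochberg adjusted p = 0.0337). It was 2.23 within the libraries that were not low and 5.03 within the low libraries, where the control value rests on control 4 alone. With both sets weighted equally it was 3.63 (edgeR, Benjamini-Hochberg adjusted p = 0.00282).

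Tnfrsf9 encodes 4-1BB (CD137), a costimulatory receptor that appears on activated lymphocytes (ENSMUSG00000028965, chr4:150914562-150946102). Its level was 146, 180.9, 242 and 199 CPM in the controls and 568, 362, 875, 536 and 637 CPM at day 7. The groups did not overlap, and the lowest day 7 value came from library 2, which was not low in Fos. The log2 fold change was 1.63 ± 0.28 (SE; edgeR quasi-likelihood, Benjamini-Hochberg adjusted p = 0.0377), with 1.29 within the libraries that were not low and 1.78 within the low ones. The gene's span overlaps Camta1, and whether counting used strand is not given in the sources used here, so reads from the overlap cannot be assigned with certainty.

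Pim2 encodes a serine/threonine kinase that cytokines induce through STAT5 and that promotes survival and growth (ENSMUSG00000031155, chrX:7878262-7883432). It stood at 58.2, 100.5, 79.2 and 104 CPM in the controls and at 179.8, 198, 227, 213 and 358 CPM at day 7. Again no day 7 library fell within the range of the controls. The log2 fold change was 1.46 ± 0.24 (SE; edgeR quasi-likelihood, Benjamini-Hochberg adjusted p = 0.0337), and it was 1.25 and 1.35 within the libraries that were not low and the low libraries.

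**Figure D2:**
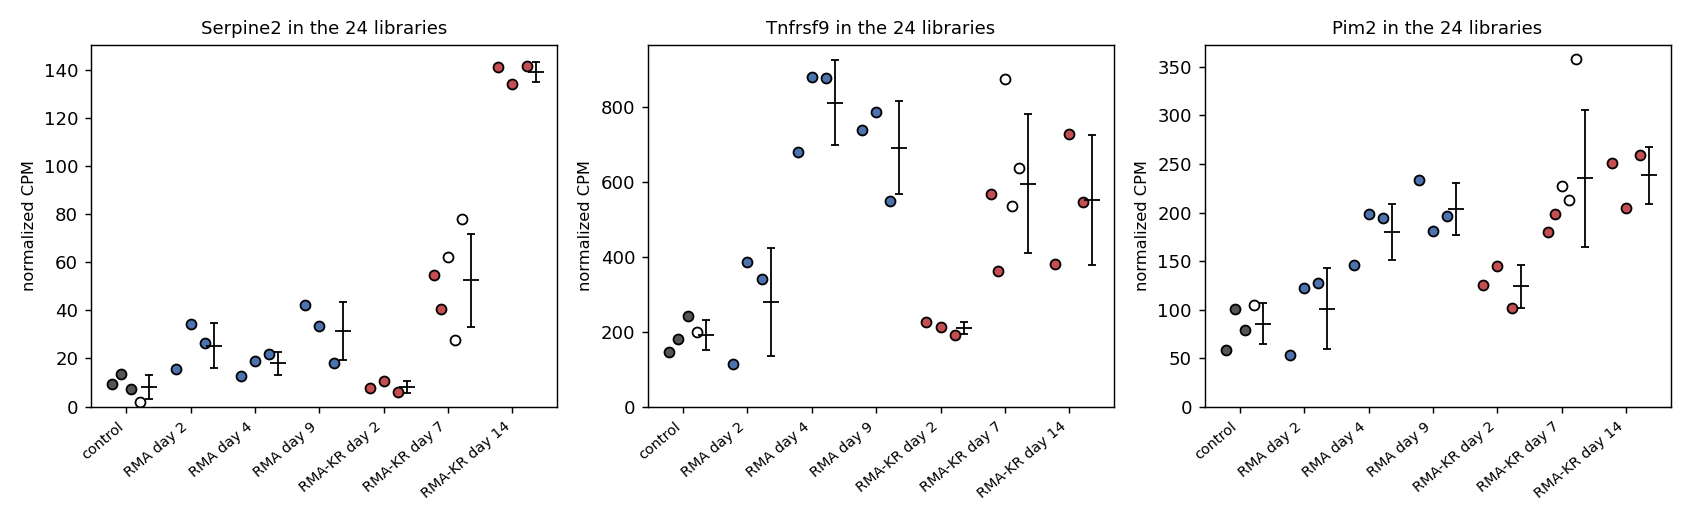
Normalized CPM of Serpine2, Tnfrsf9 and Pim2 in the 24 libraries by group. Each point is a library, open points are the 4 libraries low in Fos and Jun, and bars are the group mean ± SD. In every panel the 5 RMA-KR day 7 libraries lie above the 4 controls, and Serpine2 is at 134.1 to 141.7 CPM at RMA-KR day 14.

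These calls rest on few libraries. Averaging over both sets of libraries, edgeR called Serpine2 alone, and Tnfrsf9 and Pim2 each had a Benjamini-Hochberg adjusted p of 0.62. Within the libraries that were not low, and within the low libraries, edgeR called 0 genes, with 975 and 341 genes at an unadjusted p under 0.05. Without the 4 low libraries, a comparison chosen after seeing the data, edgeR also called 0 genes, with 874 at an unadjusted p under 0.05. Leaving out controls 1, 3 or 4 or day 7 libraries 1, 3 or 5 left 0 called genes; leaving out control 2 or day 7 library 4 left Serpine2, and leaving out day 7 library 2 gave 4 genes, the 3 above and Dtl. On all libraries DESeq2 called 25 genes, 18 higher and 7 lower, and limma-voom called 4, the same 3 and C5ar1, which was named after its result was seen.

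Promoter windows were read for the 3 called genes. RefSeq windows (GRCm38.p6) run from 250 bases before to 50 bases after a gene's start and are written 5′ to 3′ on the gene's strand, with motif matches in capitals. Motifs were searched on both strands: the CCAAT box (CCAATN), the CHR element of cell cycle genes (TTTGAA), the cyclic AMP response element (TGACGTCA), the AP-1 site (TGANTCA), the E-box (CACGTG) and the core of the interferon-stimulated response element. Windows of 11428 tested genes, 14494 in all, held them in 37.6%, 13.4%, 2.78%, 5.45%, 9.19% and 3.11% of cases.
Pim2, chrX:7878056-7878355, plus strand: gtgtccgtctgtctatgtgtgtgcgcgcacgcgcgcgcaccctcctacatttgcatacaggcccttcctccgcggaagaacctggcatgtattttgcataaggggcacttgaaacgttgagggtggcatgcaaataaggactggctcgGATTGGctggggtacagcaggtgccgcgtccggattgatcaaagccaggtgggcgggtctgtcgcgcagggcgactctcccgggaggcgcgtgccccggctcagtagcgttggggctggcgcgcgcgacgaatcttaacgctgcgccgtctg
Serpine2, chr1:79858616-79858915, minus strand: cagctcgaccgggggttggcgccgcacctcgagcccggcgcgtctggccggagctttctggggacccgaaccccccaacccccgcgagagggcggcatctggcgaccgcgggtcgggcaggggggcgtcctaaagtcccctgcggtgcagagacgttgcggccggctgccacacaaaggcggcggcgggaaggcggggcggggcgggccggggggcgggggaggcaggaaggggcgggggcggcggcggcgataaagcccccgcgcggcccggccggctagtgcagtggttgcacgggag
Tnfrsf9, the window further 5′, chr4:150919905-150920204, plus strand: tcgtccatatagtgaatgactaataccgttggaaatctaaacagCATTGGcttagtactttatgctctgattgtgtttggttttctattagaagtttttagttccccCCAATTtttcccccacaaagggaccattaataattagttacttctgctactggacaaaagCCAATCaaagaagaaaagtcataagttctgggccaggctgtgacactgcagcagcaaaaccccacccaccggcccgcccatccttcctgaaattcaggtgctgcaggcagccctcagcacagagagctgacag
The Pim2 window held 1 CCAAT box, the first Tnfrsf9 window held 3, and the Serpine2 window held no match. A further Tnfrsf9 window, chr4:150927749-150928048, held 1 AP-1 match. A match is a description of letters and says nothing of binding.

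Beyond the called genes, those with the smallest p in each direction filled the naming rule to 12 genes each. Among the higher ones, Pbk, a mitotic kinase, was at 0.739, 0, 1.79 and 0.0893 CPM in the controls and at 4.23, 10.5, 15.5, 4.55 and 2.65 CPM at day 7, with no overlap. Its log2 fold change was 3.11 within the libraries that were not low, and none is given within the low ones, where control 4 had 1 count. Dtl, a gene of S phase and DNA replication, was at 9.43, 6.37, 13.3 and 8.57 CPM in the controls and 17.5, 7.74, 112, 40.03 and 106 CPM at day 7. Dtl was thus high in the 3 low day 7 libraries, while library 2 lay within the controls, and its log2 fold change was 0.38 within the libraries that were not low and 3.33 within the low ones.

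Spp1, which encodes the secreted phosphoprotein osteopontin, had a log2 fold change of 2.30 ± 0.54 (SE), from 5.89 to 24.1 CPM in the controls to 46.9 to 103 CPM at day 7 without overlap, but an edgeR Benjamini-Hochberg adjusted p of 0.357; it was 1.99 and 3.60 within the libraries that were not low and the low ones. Psat1, of serine synthesis, had a log2 fold change of 1.17, Ppat, of purine synthesis, 0.89, and Ldha, the lactate dehydrogenase subunit of glycolysis, 0.71, with values within the libraries that were not low of 0.58, 0.84 and 0.58 and within the low ones of 1.53, 0.64 and 0.70. The translation factor Eif5a had 0.70, the spliceosomal isomerase Ppil1 0.97 and the glucuronosyltransferase gene Ugt1a7c 1.44, although Ugt1a7c shares its span with other Ugt1a genes and its reads are uncertain. Apart from Pbk, which has no value within the low libraries, the higher genes kept a positive log2 fold change within both sets. That sign was fixed in advance for genes whose groups did not overlap, and of the higher genes only Dtl and Ppat overlapped. These genes were also picked by their p over the same libraries.

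The 12 lower genes had log2 fold changes from -1.65 to -0.61, and edgeR with Benjamini-Hochberg adjustment gave them adjusted p of 0.342 to 0.497. Zfp831, a zinc finger gene, was at 49.2, 43.5, 45.4 and 41.96 CPM in the controls and at 15.1, 17.3, 12.9, 24.2 and 5.79 CPM at day 7. Ccng2, which encodes a cyclin of arrested cells, was at 63.8, 61.05, 56.99 and 39.8 CPM in the controls and 38.2, 23.1, 17.9, 12.97 and 21.7 CPM at day 7. Every day 7 library was below every control for both genes, although for Ccng2 by little.

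Vim, the intermediate filament vimentin, had a log2 fold change of -0.62, with -0.88 within the libraries that were not low and -0.23 within the low ones. The mitochondrial 12S ribosomal RNA gene mt-Rnr1 went from 13.8 to 65.4 CPM in the controls to 8.64 to 17.9 CPM at day 7, counted after reads matching ribosomal RNA had been discarded, with -2.02 and -0.02 in the corresponding sets. Its lowest control was control 4, at 13.8 CPM, so its difference was found among the libraries that were not low. The remaining 8 (Osbpl8, Mau2, Sp3, Kif21b, Rnf6, Pef1, Stx5a and Ascc3) lay between -1.0 and -0.61, and all 8 were negative within both sets. Of these only Stx5a overlapped between the groups, so for the others that sign was fixed in advance.

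**Figure D3:**
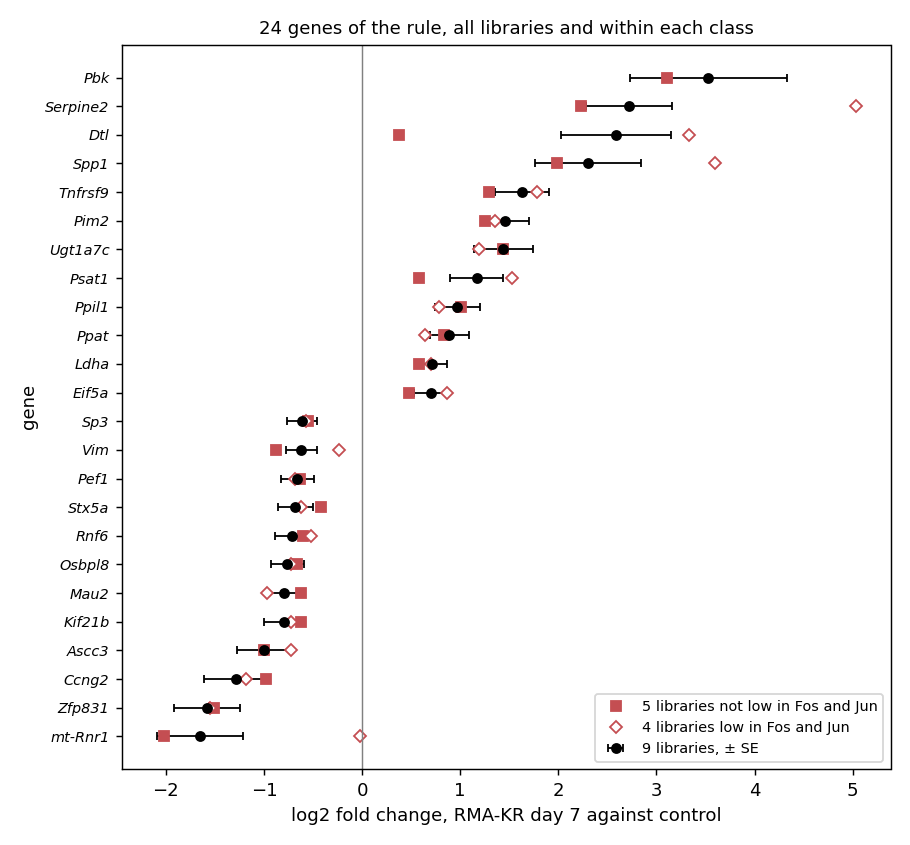
Log2 fold change of RMA-KR day 7 against control for the 24 genes of the naming rule. Black points are the 9 libraries with their SE, red squares the 5 libraries that were not low in Fos and Jun, and open diamonds the 4 low libraries, not drawn for Pbk, which had 1 count in control 4. All values drawn keep the sign found over 9 libraries, which is fixed in advance for genes whose groups do not overlap. Dtl is at 0.38 in the libraries that were not low against 3.33 in the low ones, and mt-Rnr1 at -2.02 against -0.02.

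Over all genes, agreement between both sets of libraries was slight, and these sets share no library. Of 17097 tested genes 3761 (22%) were higher within both and 4749 (27.8%) lower within both. Among 9444 genes with a mean of at least 5 CPM, 698 passed a 2-fold change within the libraries that were not low and 876 within the low ones; 72 were higher in both, 36 lower in both and 79 opposite, a count chosen after seeing the data. Across these genes, which are not independent replicates, Pearson's r between the log2 fold changes was 0.069 and Spearman's rho 0.134. A test of the difference between the sets found 0 genes with edgeR after Benjamini-Hochberg adjustment (smallest adjusted p = 0.92), with 458 at an unadjusted p under 0.05; only edgeR was run for it.

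Genes of S phase and DNA replication were higher at day 7 in all 38 members tested, and no other list of more than 3 tested genes was as uniform. Their median log2 fold change was 1.14 against 0.01 for all tested genes, and 18 of 38 had an unadjusted p under 0.05, all higher, beside 3.01% of all genes. No member was called by edgeR or limma-voom, and DESeq2 called 1, Dtl. The summed level was 2031, 2080, 2172 and 1880 CPM in the controls and 2455, 2741, 6104, 3320 and 4934 CPM at day 7. All 5 day 7 libraries were above the 4 controls, and the 3 libraries low in Fos were the highest. The median was 0.27 within the libraries that were not low and 1.61 within the low ones, where the control is control 4, the lowest of the 9; 28 members were higher in both sets, beside 22% of all genes. Mcm6, a subunit of the replicative helicase named after its values were seen, was at 292, 344, 286 and 243 CPM in the controls and 474, 483, 785, 286 and 714 CPM at day 7; only day 7 library 4, itself low in Fos, lay within the range of the controls.

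Over all 9 libraries genes of G2 and mitosis were less shifted, but not within the low ones. Their median log2 fold change was 0.40, and 30 of 38 were higher. At an unadjusted p under 0.05, 1 was higher and 0 lower, beside 3.01% and 2.91% of all genes. The median was 0.18 within the libraries that were not low and 1.59 within the low ones, and with both sets weighted equally it was 0.93, beside 0.85 for S phase. DESeq2 called 1 member, Pbk, and edgeR and limma-voom called 0. The summed level was 1067, 447, 636 and 344 CPM in the controls and 664, 864, 932, 541 and 752 CPM at day 7, so the groups overlapped and control 1 was the highest library. Mki67, which encodes the proliferation marker Ki67, was at 60.8, 13.7, 51.4 and 7.05 CPM in the controls and 22.8, 65.2, 77.3, 14.8 and 22.4 CPM at day 7. Its log2 fold change was 0.29 ± 0.73 (SE; edgeR, Benjamini-Hochberg adjusted p = 0.999), with 0.07 within the libraries that were not low and 2.43 within the low ones. The groups overlapped over all 9 libraries, while the 3 low day 7 libraries were all above control 4. The topoisomerase gene Top2a, named after its values were seen, was at 103, 41.8, 45.6 and 44.02 CPM in the controls and 72.8, 115, 151, 80.2 and 109 CPM at day 7, and control 1 alone lay among the day 7 libraries. The log2 fold changes within the sets were 0.57 and 1.36.

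**Figure D4:**
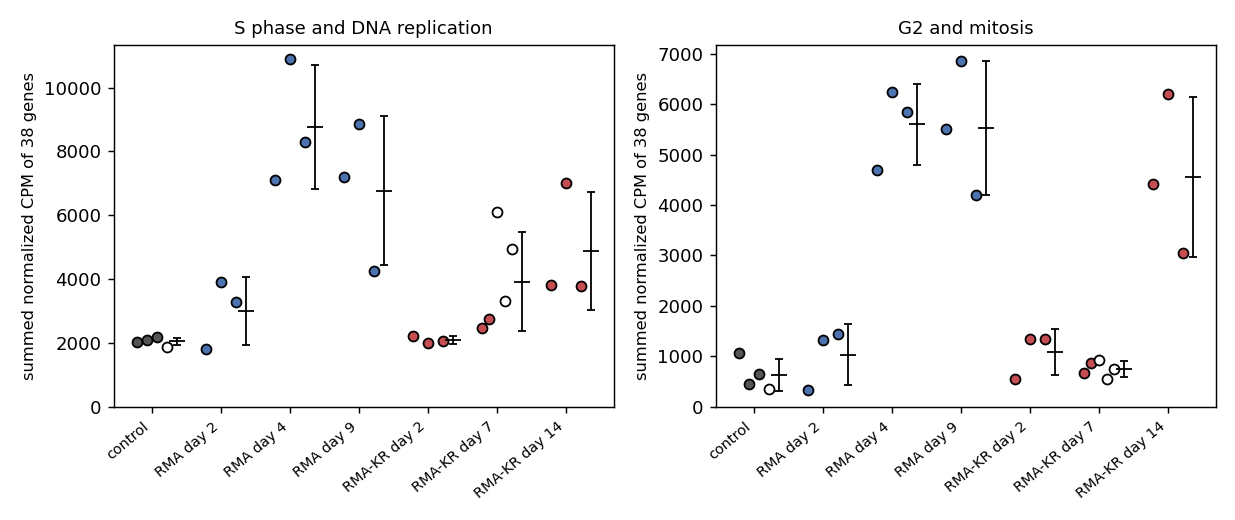
Summed normalized CPM of 38 S phase and DNA replication genes and of 38 G2 and mitosis genes in the 24 libraries by group. Each point is a library, open points are the 4 libraries low in Fos and Jun, and bars are the group mean ± SD. RMA-KR day 7 lies above control for S phase (2455 to 6104 against 1880 to 2172 CPM) and overlaps it for mitosis, where RMA-KR day 14 holds 3047 to 6205 CPM.

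Among 45 interferon-stimulated genes 37 were higher at day 7, with a median of 0.29. At an unadjusted p under 0.05, 7 were higher and 0 lower, beside 3.01% and 2.91% of all genes. The median was 0.01 within the libraries that were not low and 0.47 within the low ones, where all genes had -0.14 and 0.05, so the shift was larger among the low libraries. Within both sets 21 members were higher, beside 22% of all genes. Summed levels were 2630, 3338, 3838 and 3404 CPM in the controls and 3608, 3507, 4541, 3732 and 4453 CPM at day 7. The antiviral genes Isg15 and Rsad2 were at low levels. Isg15 was at 2.03 to 8.13 CPM in the controls and 1.35 to 12.3 CPM at day 7, and Rsad2 at 0.739 to 7.72 and 3.33 to 12.5 CPM, and both overlapped between groups. Lgals3bp, the most abundant member per kilobase and named after its values were seen, was at 245, 362, 351 and 460.5 CPM in the controls and 515, 381, 598.5, 563 and 808 CPM at day 7. Rtp4, a chaperone of chemosensory receptors induced by interferon and also chosen after its values were seen, had a log2 fold change of 1.00, with 0.28 within the libraries that were not low and 1.14 within the low ones, and its groups overlapped.

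For cytokine responses, 13 of 22 genes of the IL-2 and IL-15 response were higher (median 0.14, and 0.25 and 0.29 within the sets), and Pim2 and Tnfrsf9 of this list were called. Of 23 IL-12 and IL-18 response genes 13 were higher (median 0.13, and 0.35 and 0.32 within the sets), with Tnfrsf9 called. Interleukin receptors and STATs were 15 higher and 17 lower of 32, or 17 and 15 with DESeq2's size factors, with 6 higher and 1 lower at an unadjusted p under 0.05, beside 3.01% and 2.91% of all genes. Il2rb, the shared β chain of the IL-2 and IL-15 receptors, was at 2062, 2260, 2061 and 3134 CPM in the controls and 3304, 2474, 3123, 3711 and 3333 CPM at day 7. Only control 4 lay within the range of day 7, and the log2 fold change was 0.42 ± 0.15 (SE; edgeR, Benjamini-Hochberg adjusted p = 0.692), with 0.44 within the libraries that were not low and 0.11 within the low ones. Il27ra, a receptor chain for IL-27, and Il18r1, the ligand-binding chain for IL-18, were chosen after their values were seen. Il27ra was higher in every day 7 library (log2 fold change 0.84), and Il18r1 was lower in every one (-0.83). Their signs within both sets were thereby fixed in advance, and neither was called.

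Checkpoint receptors were tested for 15 of 16 genes, of which 11 were higher (median 0.34, and 0.21 and 0.35 within the sets). With edgeR, DESeq2 and limma-voom 0 were called. At an unadjusted p under 0.05, 2 were higher and 0 lower, beside 3.01% and 2.91% of all genes. Tigit was at 81.7, 66.7, 128 and 61.3 CPM in the controls and 103, 105, 129, 119.8 and 155 CPM at day 7, so that control 3 lay among the day 7 libraries. Its log2 fold change was 0.53 ± 0.32 (SE), with 0.17 within the libraries that were not low and 1.13 within the low ones. Lag3 was at 11.5, 10.8, 19.6 and 22.1 CPM in the controls and at 11.7, 8.10, 44.2, 41.2 and 80.4 CPM at day 7. Its higher level was confined to day 7 libraries 3, 4 and 5, which were low in Fos, and within the libraries that were not low the log2 fold change was -0.49, against 1.32 within the low ones. Havcr2, which encodes TIM-3, had 0, 1, 0 and 0 counts in the controls and 0, 0, 89, 12 and 189 counts at day 7, again in the same 3 libraries, and no fold is given. Pdcd1, which encodes PD-1, had at most 4 counts in any of the 9 libraries and was not tested. Nt5e (CD73) overlapped between the groups, at 4.44 to 24.8 and 3.24 to 49.4 CPM.

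Of 32 tested genes of the exhaustion-linked list 21 were higher (median 0.33, and 0.37 and 0.47 within the sets). Within both sets of libraries 20 members were higher, beside 22% of all genes. Serpine2 was the 1 member that edgeR called, while DESeq2 called Spp1 as well. Tox, a transcription factor of exhausted T cells and of NK cell development, was at 74.8, 65.3, 62.4 and 76.2 CPM in the controls and 91.1, 79.8, 100.4, 104 and 95.8 CPM at day 7. Its groups did not overlap, and the log2 fold change was 0.43 ± 0.19 (SE; edgeR, Benjamini-Hochberg adjusted p = 0.795), 0.34 and 0.39 within the libraries that were not low and the low ones. Of 17 tested cytokines and chemokines 9 were higher and 8 lower (median 0.47, and 0.15 and 0.41 within the sets). Of these, edgeR and limma-voom called 0 and DESeq2 1, Spp1. At an unadjusted p under 0.05 with edgeR, 2 were higher and 1 lower, beside 3.01% and 2.91% of all genes. Ifng was at 253, 291.5, 373 and 59.3 CPM in the controls and 359.7, 390.5, 93.9, 58.0 and 72.2 CPM at day 7, and it was low in the 4 libraries low in Fos. Over all 9 libraries its log2 fold change was -0.32, and within the libraries that were not low and the low ones it was 0.29 and 0.33. Cd69, an early activation antigen, was also low in the 4 libraries low in Fos. It was at 502, 189.5, 417 and 60.4 CPM in the controls and 379.9, 359, 102, 90.8 and 120.1 CPM at day 7. The log2 fold change of Cd69 was -0.47 over all 9 libraries, 0.00 within the libraries that were not low and 0.79 within the low ones. The chemokine gene Xcl1, chosen after its values were seen, was higher in every day 7 library, with a log2 fold change of 0.75, and 0.53 and 1.09 within the sets.

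The cytotoxic machinery was tested for 22 of 26 genes, 12 higher and 10 lower (median 0.03), with 0 called by edgeR, DESeq2 or limma-voom and 0 at an unadjusted p under 0.05. Prf1, the pore-forming perforin, was at 3140, 4653, 5559 and 3297 CPM in the controls and 4639, 5271, 2933, 2811 and 2514 CPM at day 7. Gzmb was at 990.1, 1569, 2887 and 811 CPM and at 1922, 1832, 1563, 969 and 1136 CPM, and Gzma, the most abundant member per kilobase, at 6066 to 12410 and 4445 to 12470 CPM. For Prf1 and Gzma the low libraries of day 7 had less than every control, whereas libraries 1 and 2 lay within or just above the range of the controls. Lamp1, whose protein marks degranulation when it reaches the surface, overlapped at 172 to 288 and 186 to 361 CPM.

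Activating receptors went in both directions. Of 36 activating receptors and signaling genes 17 were higher and 19 lower (median -0.03), with 5 higher and 3 lower at an unadjusted p under 0.05, beside 3.01% and 2.91% of all genes, and DESeq2 called 1 of them, Sh2d1b2, named after its result was seen. Klrk1, which encodes NKG2D, had a log2 fold change of -0.17 ± 0.16 (SE), Ncr1 (NKp46) 0.06 ± 0.15 and Klrb1c (NK1.1) -0.05 ± 0.15. The signs of these 3 genes vary with the libraries used, and for Klrk1 they were 0.15 within the libraries that were not low and -0.41 within the low ones. Of 18 Ly49 and NKG2 receptors 13 were lower (median -0.24) and 5 had an unadjusted p under 0.05, all lower. The medians were 0.03 within the libraries that were not low and -0.35 within the low ones. Klra8 (Ly49H) and Klrc2 (NKG2C), chosen after their values were seen, had log2 fold changes of -0.51 and -0.47, with -0.20 and -0.17 within the libraries that were not low and -0.53 and -0.43 within the low ones. Reads shared by members of such near-identical families cannot be assigned with certainty.

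Maturation and lineage genes were divided. NK maturation markers were 12 higher and 12 lower of 24 (median -0.02), and NK lineage factors 14 higher and 13 lower of 27 (median 0.01). Itgam, the integrin CD11b of mature NK cells, was at 234, 287, 394 and 139 CPM in the controls and 191, 276, 90.2, 112 and 75.9 CPM at day 7, with a log2 fold change of -0.82 ± 0.31 (SE; edgeR, Benjamini-Hochberg adjusted p = 0.713). The values were lowest in the low libraries of day 7, and within the sets they were -0.39 and -0.59. Cd27, of less mature cells, overlapped at 129.6 to 256 and 127 to 258 CPM, and so did Eomes, the T-box factor of conventional NK cells, at 255 to 388 and 213 to 379.9 CPM. Chosen after their values were seen, Zeb2, a factor of terminal maturation, was at 278 to 502 CPM in the controls and 317, 465, 134, 151.5 and 108 CPM at day 7, and Kit, the stem cell factor receptor, at 9.16 to 117 CPM and 64.5, 75.6, 232, 228 and 266 CPM. Both separated the low day 7 libraries from the rest.

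Homing and adhesion genes were 12 higher and 15 lower of 27 (median -0.05), or 13 and 14 with DESeq2's size factors. Negative regulators of signaling were 17 higher and 19 lower of 36 (median -0.01), or 19 and 17 with those factors. The TNF superfamily had 14 higher of 22 (median 0.12), with Tnfrsf9 its called gene. Apoptosis and survival genes were 11 higher and 17 lower of 28 (median -0.10), and galectins, S100 proteins and annexins 11 and 11 of 22 (median 0.01). Among them and chosen after their values were seen, Birc2, an inhibitor of apoptosis, had a log2 fold change of -0.73, Trp53 0.61 and Lgals9 0.45, each with the same sign within both sets of libraries, and none was called. For Birc2 and Lgals9, whose groups did not overlap, that sign was fixed in advance.

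Median log2 fold changes of the metabolic lists were positive within both sets of libraries, except for the mitochondrially encoded genes. All tested genes had medians of -0.14 and 0.05 within the sets. Of 53 genes of oxidative phosphorylation 41 were higher (median 0.20, and 0.14 and 0.24 within the sets). Within both sets 31 were higher, beside 22% of all genes. Summed levels were 6259, 8302, 7747 and 7051 CPM in the controls and 8174, 8371, 8486, 7850 and 8743 CPM at day 7, so that control 2 lay within the range of day 7 and the other controls below it. Glycolysis and nutrient transport had 21 of 26 higher (median 0.30, and 0.14 and 0.28 within the sets). Cholesterol and fatty acid synthesis had 18 of 25 (0.27, and 0.14 and 0.16), with 8 higher within both, beside 22% of all genes. The ATF4 and amino acid response had 17 of 23 (0.29, and 0.14 and 0.45). In this last list 7 genes were higher at an unadjusted p under 0.05, beside 3.01% of all genes, and 1 was lower, Atf4 itself; DESeq2 called Phgdh and Psat1, of which Phgdh, the entry enzyme of serine synthesis, was at 17.4 to 22.8 CPM in the controls and 31.2 to 82.1 CPM at day 7. Atf4 was at 206 to 375 and 147 to 212 CPM with overlap, and had log2 fold changes of -0.95 within the libraries that were not low and -0.03 within the low ones. Phgdh and Atf4 were chosen after their values were seen, as were Pkm, the pyruvate kinase of glycolysis, with a log2 fold change of 0.48, Ndufa10 and Uqcrc1 of the respiratory chain, with 0.48 and 0.43, and Myc, the growth regulator, with 0.67. Mitochondrially encoded genes were 3 higher and 5 lower of 8 tested (median -0.14, and -0.12 and 0.08 within the sets). MHC class I presentation and immunoproteasome genes had 19 of 22 higher (median 0.20). Within both sets 12 were higher and 0 lower, beside 22% and 27.8% of all genes.

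**Figure D5:**
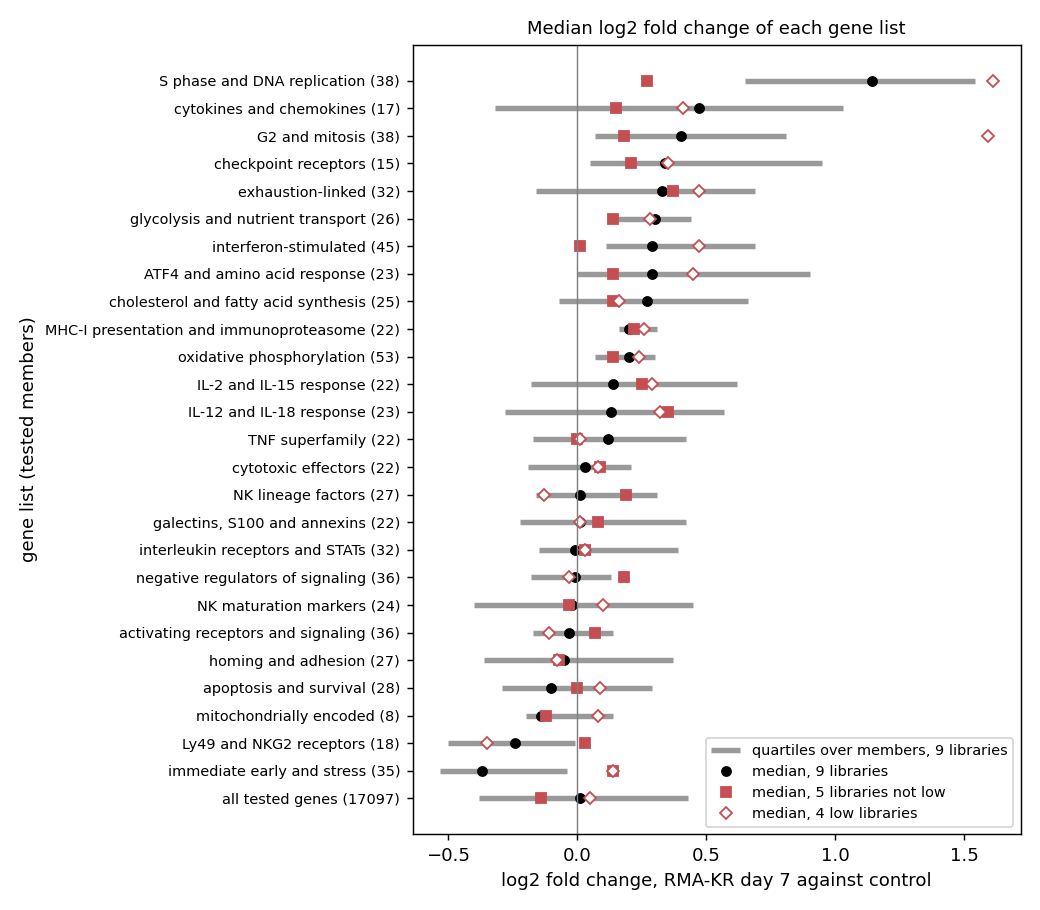
Median log2 fold change of RMA-KR day 7 against control for each gene list, with the number of tested members. Black points and grey bars are the median and quartiles over members in 9 libraries, red squares the 5 libraries that were not low in Fos and Jun, and open diamonds the 4 low libraries. Among the lists shown S phase stands highest at 1.14, and the immediate early list is at -0.37 over all libraries but at 0.14 within each set.

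Markers of the cells were examined next. All 12 NK cell markers were present, with summed levels of 26250, 34140, 37200 and 26650 CPM in the controls and 36060, 37620, 23710, 23720 and 22400 CPM at day 7, Gzma being the most abundant per kilobase. They were 2 higher and 10 lower (median -0.14), 0.15 within the libraries that were not low and -0.30 within the low ones. In a bulk sample, fewer cells of a type and less RNA per cell cannot be told apart. B cell markers summed to 247 to 428 CPM in the controls and 296 to 528 CPM at day 7. Of 12 tested, 6 were higher (median 0.02, and -0.98 and 0.08 within the sets). Plasma cell markers summed to 237 to 392 and 291 to 469.9 CPM, with 4 of 7 higher (median 0.26, and -1.18 and 0.31). Ighm was the most abundant of both lists, at 233 to 387 and 283 to 465 CPM. T cell and T lymphoma markers summed to 472 to 584 and 498 to 597 CPM (9 of 13 higher, median 0.11), led by Trbc1 at 224 to 281 and 259 to 310 CPM. So RNA of B and T lineage genes was low beside the NK cell markers and overlapped between the groups.

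Macrophage and monocyte markers summed to 1463 to 1581 CPM in the controls and 1445 to 1771 CPM at day 7 (8 of 10 higher, median 0.30). Ly6c2, the most abundant per kilobase and also expressed by NK cells, stood at 341 to 570 and 224 to 559.7 CPM. Granulocyte markers summed to 0.193 to 4.38 and 0.139 to 6.71 CPM, with S100a9 and Camp at 0 in all 9 libraries and Mmp9 the most abundant; 3 of 14 were tested (3 higher, median 0.68). Erythroid markers summed to 303 to 472 and 425 to 519.8 CPM, nearly all from Car2 at 302 to 468.5 and 424 to 519 CPM, and 5 of 11 had at most 3 counts in each library (2 of 3 tested higher, median 0.40). Megakaryocyte and platelet markers summed to 2.03 to 4.46 and 0.540 to 14.1 CPM, with Itga2b the most abundant per kilobase at 0 to 1.07 and 0 to 12.4 CPM (2 of 6 higher, median -0.88). Granulocyte and megakaryocyte markers were therefore near 0, whereas the macrophage sum came nearly all from Ccr2 and Ly6c2, both expressed by NK cells too, and the erythroid sum from Car2.

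Dendritic cell and ILC1 markers were highest in the low day 7 libraries. Dendritic cell markers summed to 687, 427, 488 and 689 CPM in the controls and 673, 552, 1009, 943 and 1296 CPM at day 7 (10 of 11 higher; median 1.19, and 0.09 and 1.34 within the sets), led by Itgax, which NK cells express too, at 660.5, 377, 432.5 and 600.2 CPM and 596, 519, 839.7, 703 and 1075 CPM. ILC1 markers summed to 38.1, 73.9, 92.5 and 198.6 CPM in the controls and 66.8, 41.7, 251.5, 351 and 281 CPM at day 7 (7 of 9 higher; median 0.97, and -0.28 and 0.81 within the sets). Tmem176b, which overlaps Tmem176a and was the most abundant per kilobase, was at 1.48, 4.92, 12.3 and 30.0 CPM and 4.58, 14.9, 41.4, 76.1 and 40.2 CPM. The 4 libraries low in Fos and Jun were the 4 highest of the 9 for the ILC1 sum, whereas the dendritic cell sum of control 4 was level with that of control 1. These 4 libraries were also the highest for B cell markers, at 394 to 528 CPM against 247 to 366 CPM in the others. The same held for granulocyte markers (2.16 to 6.71 against 0.139 to 1.85 CPM) and megakaryocyte and platelet markers (4.46 to 14.1 against 0.540 to 3.47 CPM). The part of these markers in the results above, including Lag3, Havcr2, Kit, Zeb2 and the receptor list, was not tested.

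Against the late time point, RMA-KR day 7 NK cells differed in 51 genes (0.298% of 17097), of which 42 were higher at day 14 and 9 lower. The balance depended on the tool: DESeq2 called 114 higher and 166 lower, and limma-voom 84 and 4. Genes of mitosis were among them: Anln, a scaffold of the cytokinetic ring, rose from 0 to 2.29 CPM at day 7 to 17.7, 48.8 and 40.96 CPM at day 14, and Plk1, a mitotic kinase, from 2.18 to 12.6 CPM to 95.5, 136 and 51.3 CPM. The log2 fold changes were 5.75 ± 0.99 (SE; edgeR, Benjamini-Hochberg adjusted p = 0.0082) and 3.46 ± 0.53 (adjusted p = 0.00319). Anln had 0, 2, 20, 2 and 7 counts at day 7, and its value ranged from 3.53 to 8.61 over the alternatives. Its controls were at 1.83 to 13.5 CPM, above 4 of the 5 day 7 libraries. All 38 genes of G2 and mitosis were higher at day 14 (median 2.88, beside -0.16 for all genes), and 15 were called. S phase genes were 30 of 38 higher (median 0.47), with 1 called. Tigit rose by 2.55 ± 0.34 on the log2 scale to 1274, 391 and 484 CPM, and Spp1 by 2.75 ± 0.53, with edgeR Benjamini-Hochberg adjusted p of 0.0013 and 0.0199. Serpine2, at 141.3, 134.1 and 141.7 CPM at day 14, was above all 5 day 7 libraries, but its log2 difference of 1.40 did not pass (edgeR, Benjamini-Hochberg adjusted p = 0.226), and Tnfrsf9 and Pim2 differed by -0.11 and 0.02. Ltb, which encodes lymphotoxin β, fell by 3.00 on the log2 scale to between 11.6 and 28.0 CPM, from 59.8, 42.8, 184, 322 and 215.5 CPM at day 7. Ltb at day 7 was again highest in the low libraries, and without them its log2 difference was -1.29 and did not pass (edgeR, Benjamini-Hochberg adjusted p = 0.699). The count was 31 without day 7 library 3, 19 without day 7 library 4, 25 without day 14 library 1 and 12 without the low libraries.

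RMA at day 4, the intermediate time point of the parental tumor, gave 86 genes that differed from RMA-KR day 7 (0.503% of 17097), 4 higher and 82 lower in RMA-KR. This balance was not kept by other tools, as DESeq2 called 198 higher and 142 lower and limma-voom 331 and 310. Without the 4 low libraries 74 genes were called, 21 higher and 53 lower, of which 37 were among the 86. Tumor line and day differ together in this comparison and cannot be told apart. All 38 genes of G2 and mitosis and all 38 of S phase were lower in RMA-KR day 7 than in RMA day 4, with medians of -3.11 and -1.29 and with 24 and 3 called, beside a median of 0.23 for all genes (0.27 with DESeq2's size factors). Plk1 was at 122, 156 and 149.5 CPM in RMA day 4, and its log2 difference was -4.06 ± 0.54 (SE; edgeR, Benjamini-Hochberg adjusted p = 0.000335). Gzmb was lower than at RMA day 4, where it held 4490, 3973 and 4245 CPM, by -1.51 ± 0.28 (edgeR, Benjamini-Hochberg adjusted p = 0.00771). Of 45 interferon-stimulated genes 41 were lower, with a median of -0.97 and 5 called. Cd7, a lymphocyte surface glycoprotein, was among the 4 higher genes, at 364, 356, 453, 644 and 563 CPM in RMA-KR day 7 and 127, 132 and 125 CPM in RMA day 4, a log2 difference of 1.89 ± 0.25 (edgeR, Benjamini-Hochberg adjusted p = 0.000335). Tnfrsf9 did not pass in this comparison: it held 681, 880 and 877 CPM in RMA day 4, each above at least 4 of the 5 RMA-KR day 7 libraries. Leaving out single libraries moved the count to 45, 54, 34 and 55 without RMA-KR day 7 libraries 1, 2, 4 and 5 and to 45, 47 and 42 without RMA day 4 libraries 1, 2 and 3.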

How the data were processed

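NK cell RNA from 24 spleen samples was measured, and 9 were compared here. Per the submitters' processing notes the reads were handled with cutadapt 1.10, Bowtie2 2.2.8, STAR 2.5.3a and HTSeq 0.6.1p1 on mm10; whether counting used strand is not given in the sources used here. The authors deposited raw counts per gene for 45237 genes. The table's 48 normalized columns, and 29 columns with the authors' own fold changes and p-values, were not used. Of these genes 17097 (37.8%) passed filterByExpr. Counts were TMM-normalized and fitted over all 24 libraries in 7 groups with edgeR 4.0.16 (robust quasi-likelihood, R 4.3.3), Benjamini-Hochberg adjusted over all tested genes; the common biological coefficient of variation was 0.852. Depth was 5138651 to 14824109 counts, where 3 counts equal 0.208 to 0.554 CPM. Alternatives used DESeq2 1.42.0, limma 3.58.1, other filters, other sample sets, a replicate block and each replicate left out. Tables and plots used Python 3.11.15, numpy 2.4.6, pandas 2.3.3, scipy 1.17.1 and matplotlib 3.10.9. The fits were tested on simulated data that lacked the division by Fos and Jun, so that test does not cover its effect.

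Genes were named by rule: the 12 highest and 12 lowest called genes without overlap and a mean of at least 5 CPM, filled up by smallest p; up to 4 called genes of each list and direction; genes the study measured by other methods; Fos and Jun; the most abundant markers; and 3 genes in each direction of the other comparisons. Members and lists were chosen with earlier results of these data known. Within the 9 libraries no pair of a group looked like 1 library sequenced again: chi-square per degree of freedom was 25.3 to 95.2, and log2 CPM correlated at 0.874 to 0.939. These values cannot tell separate mice from separate preparations of the same cells.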

Additional observations from a re-analysis of the deposited data

Results flagged for a closer look

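For 7 genes 1 library of a group of 4 or 5 lay far from the others, among 178 groups examined over 89 genes; chance gives this in about 1 in 20 groups. Among the controls, Mau2 was at 268 CPM in control 2 (others 301 to 307), Lamp1 at 172 CPM in control 3 (others 271 to 288), Jun at 105 CPM in control 4 (others 815 to 939) and Top2a at 103 CPM in control 1 (others 41.8 to 45.6). At RMA-KR day 7, Plk1 was at 2.18 CPM in library 3 (others 8.42 to 12.6), Il27ra at 196 CPM in library 3 (others 304 to 348) and Myc at 74.2 CPM in library 5 (others 116 to 138). Of these, Jun in control 4 belongs to the division of the libraries by Fos and Jun.

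Named genes that differed between other groups were noted too (edgeR, adjusted by Benjamini-Hochberg). From RMA-KR day 7 to day 14 the log2 difference was 2.75 for Spp1, 2.55 for Tigit, -1.62 for Ly6c2, 5.75 for Anln, 3.95 for Ube2c, 3.46 for Plk1 and 2.11 for Top2a. For Ltb, Lrba and Sdc4 it was -3.00, -2.89 and -2.72. Between RMA-KR day 7 and RMA day 4 it was -3.13 for Pbk, -1.51 for Gzmb, -6.32 for Anln, -4.62 for Ube2c, -4.06 for Plk1, -4.97 for Ttk and -2.74 for Top2a. Cd7, Kdm5b and Ip6k1 were higher in RMA-KR day 7, by 1.89, 1.53 and 1.40. Of 17 alternatives, the day 14 calls of Ltb, Lrba, Sdc4 and Top2a were kept in 7, 7, 6 and 7, and the RMA day 4 calls of Ip6k1, Pbk and Ttk in 7, 8 and 10, while Tigit against day 14, and Cd7, Anln and Plk1 against RMA day 4, kept theirs in all 17.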

How the results depend on the processing

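Against control, 3 genes were called with edgeR on all libraries, 3 with DESeq2's size factors or a mean filter of 5 CPM, and 4 with limma-voom. The count was 25 with DESeq2, 21 with its beta prior, 56 with no filter and 0 with only the groups compared in the fit (934 at an unadjusted p under 0.05). It was 1 averaged over both sets of libraries and 0 within the libraries not low in Fos and Jun, within the low ones, and without the 4 low libraries, an alternative chosen after seeing the data. Leaving out single libraries gave 0 to 4. The day 14 comparison (51) gave 280, 170, 88, 263 and 19 with DESeq2, its beta prior, limma-voom, no filter and only the groups compared, 12 without the low libraries and 19 to 66 without single libraries. The RMA day 4 comparison (86) gave 340, 199, 641 and 272 with the first 4 of these and 34 to 70 without single libraries. The cause was not tested.

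Samples with the same replicate number showed no common deviation (correlations of -0.11 to 0.20 over 4 pairs). These deviations also carry the division by Fos and Jun: control 4 correlated at 0.153 with day 7 library 5 and at -0.229 with library 1. With so few pairs a pairing by number can be neither shown nor excluded. With the replicate number as a block the counts were 1, 16 and 42. Under the block Gzmb had a log2 fold change of 0.06 and Klrb1c 0.02, opposite in sign to the values without it.

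Of 82 gene results, 52 kept their direction in all 21 alternatives and were never called. A further 12 gained a call in some alternatives, and 15 changed sign in some, none of them called with edgeR on all libraries. A call needs both the adjusted p and the 2-fold change, and 14 more genes met only the first in some alternative. No call was kept in all alternatives. Serpine2, Tnfrsf9 and Pim2, whose groups did not overlap, kept a positive sign throughout (2.23 to 5.03, 1.29 to 1.78 and 1.25 to 1.56) but were called in only 11, 7 and 7 of 21. Without the 4 low libraries the opposite sign was found for Cd27 (-0.14), Cd69 (0.01), Gzma (0.24), Gzmb (0.07), Ifng (0.31), Isg15 (-0.55), Jun (0.16), Klrb1c (0.33), Klrk1 (0.17), Lag3 (-0.48), Ly6c2 (0.08) and Prf1 (0.17). Within the libraries not low, with all libraries in the fit, the values were -0.16, 0.00, 0.23, 0.05, 0.29, -0.57, 0.14, 0.31, 0.15, -0.49, 0.06 and 0.15 in the same order. Within the low libraries it was found for Cd27 (-0.13), Cd69 (0.79), Gzmb (0.59), Ifng (0.33) and Jun (0.14), and averaged over both sets for Cd27 (-0.14), Cd69 (0.39), Gzmb (0.32), Ifng (0.31), Isg15 (-0.14) and Jun (0.14). Without single libraries the sign varied for Cd27 (-0.04 to 0.30), Eomes (-0.25 to 0.02), Gzmb (-0.30 to 0.40), Klrb1c (-0.17 to 0.03), Mki67 (-0.09 to 0.75) and Ncr1 (-0.01 to 0.10). The cause was not tested. At this depth 3 counts equal 0.208 to 0.554 CPM, which limits Havcr2 and Pdcd1.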
